A study of Arabidopsis thaliana with 8 samples.

Results

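Arabidopsis seedlings that lack JMJ24 were set against seedlings that carry it, over both states of a second jumonji gene, IBM1. The 4 arrays lacking JMJ24 were 2 of the JMJ24 knockout and 2 of the JMJ24-IBM1 double knockout, and the 4 arrays with JMJ24 were 2 of wild type (WT) and 2 of the IBM1 knockout. They make up all 8 Affymetrix ATH1 arrays of the series, and the genotype label alone placed each array. Every plant was of the Col-0 ecotype, aged 12 days and untreated, and RNA came from the aerial parts. The plants grew on MS medium at 60% humidity, in long days, with 16 h at 20 °C under a light of 120 µmol per square metre and second, then nights of 8 h at 18 °C. The labels name neither the mutant alleles nor the number of lines, and give no word on whether replicate arrays stem from separate plants. The p-values therefore cover the spread among these arrays only, and that spread may be technical. In whole aerial parts, fewer cells of a type and less RNA per cell cannot be told apart.

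Jumonji proteins form a family named for the JmjC domain, which in many members removes methyl groups from histone lysines. IBM1 is such an enzyme. It clears methylation of histone H3 lysine 9 from the bodies of transcribed genes and so keeps the DNA methyltransferase CMT3 away from them. JMJ24 belongs to the same subgroup and also carries a RING finger, the fold of many ubiquitin ligases. It has been described as a partner in the turnover of CMT3 and in the silencing of transposable elements.

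The deposited values are log2 intensities, 1 per probe set and array, so a difference of 1 is a doubling. A probe set is the group of probes that reads a transcript, and 22746 were tested after 64 control probe sets were left out. JMJ24 status and IBM1 status were fitted together, so that each JMJ24 difference is the mean shift of the JMJ24-lacking arrays over both IBM1 backgrounds. A probe set was called at an adjusted p under 0.05. Of the tested probe sets 13513 name 1 gene and the others are unnamed here, which includes those of JMJ24 and IBM1. The loss of the targeted transcripts was therefore not checked. Total RNA yields were 27 to 38.4 µg in the JMJ24-lacking samples and 16.2 to 45.5 µg in the JMJ24-bearing ones. The array medians lay between 3.41 and 3.52. Over all probe sets, JMJ24 knockout 1 correlated more closely with double knockout 2 (Pearson r = 0.994) than with JMJ24 knockout 2 (r = 0.992), and JMJ24 knockout 2 correlated at 0.993 with double knockout 1. The other JMJ24-lacking pair of 1 genotype, double knockout 1 and 2, correlated at 0.988. The array closest to JMJ24 knockout 2 was WT 2 (r = 0.994). The labels do not say which samples were grown or handled together, and whether arrays were exchanged between genotypes was not tested. The differences within 1 IBM1 background and the interaction rest on the labels as given. An exchange among the 4 JMJ24-lacking arrays alone would leave that group and its fitted difference as they are. It would still change the IBM1 status of the exchanged arrays, and so the SE and adjusted p of the joint fit. Without JMJ24 knockout 1 and double knockout 2, a removal chosen after seeing the data, 1 probe set was called, AT2G46910 at -1.93 (SE 0.044, limma adjusted p = 0.027), and the other 5 given next had an adjusted p of 0.289 at differences of the same sign.

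Few probe sets were called for JMJ24 status over both IBM1 backgrounds, and with so few arrays an uncalled probe set is not shown to be unchanged. Of 22746 probe sets, 6 were called (0.0264%), with 2 higher (0.00879%) and 4 lower (0.0176%) on the JMJ24-lacking arrays. Of the 6, 3 name a gene, and the unnamed 264649_at, which fell, may read JMJ24 itself. AT2G46910, a plastid fibrillin, fell (log2 difference -2.00), as did AT4G38020, a protein of the SpoU family of RNA methyltransferases (-0.81). The pseudogene AT3G13270 rose (1.74). At an unadjusted p under 0.05 there were 1322 probe sets (5.81%), of which 680 were higher and 642 lower, and 1137 would make up 0.05 of all tests. At an unadjusted p under 0.01 there were 310 (1.36%). For IBM1 status in the same fit no probe set was called (0), and 1986 (8.73%) had an unadjusted p under 0.05.

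AT2G46910 encodes a fibrillin, one of the lipid-binding proteins of plastids and of their lipid droplets, the plastoglobules. Its log2 values were 4.89 and 5.18 on the JMJ24 knockout arrays and 4.85 and 4.85 on the double knockout arrays. They were 7.20 and 7.14 in WT and 6.72 and 6.72 in the IBM1 knockout. All 4 JMJ24-lacking arrays thus lay more than 1 below every JMJ24-bearing array. The means were 4.94 ± 0.16 on JMJ24-lacking arrays and 6.94 ± 0.26 on JMJ24-bearing arrays (SD, n = 4 each). The fitted difference was -2.00 (SE 0.083), and its limma adjusted p was 0.00593. It was -2.13 (SE 0.097) for JMJ24 knockout minus WT and -1.87 (SE 0.097) for double knockout minus IBM1 knockout. The gap between these 2 differences was 0.27, with an unadjusted interaction p of 0.107 and a limma adjusted p of 0.781. The call was lost when JMJ24 knockout 2, double knockout 1, WT 2 or IBM1 knockout 1 was left out, with adjusted p between 0.0662 and 0.0922, while the difference stayed between -2.03 and -1.92 over all 8 removals.

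AT4G38020 is annotated in the SpoU family, whose members methylate the ribose of transfer or ribosomal RNA. It stood at 3.79 and 3.83 on the JMJ24 knockout arrays, 3.71 and 3.79 on the double knockout arrays, 4.71 and 4.62 in WT, and 4.54 and 4.48 in the IBM1 knockout. The spread within a genotype was at most 0.09, against a gap of 0.81 between JMJ24-lacking and JMJ24-bearing arrays. The means were 3.78 ± 0.05 and 4.59 ± 0.10 on JMJ24-lacking and JMJ24-bearing arrays (SD, n = 4 each). The difference was -0.81 (SE 0.040, limma adjusted p = 0.00852). It was -0.86 (SE 0.054) for JMJ24 knockout minus WT and -0.76 (SE 0.054) for double knockout minus IBM1 knockout. Of the 8 removals of 1 array, the call held without double knockout 2, WT 1 or IBM1 knockout 2, and was lost in the other 5.

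AT3G13270 is annotated as a pseudogene and was the only named probe set called higher. It read 4.53 and 4.11 on the JMJ24 knockout arrays and 4.35 and 4.08 on the double knockout arrays, against 2.47 and 2.80 in WT and 2.46 and 2.38 in the IBM1 knockout. On 3 of the 4 JMJ24-bearing arrays the value lay at or below the array's lower quartile, which ran from 2.49 to 2.53 and serves here as a mark of near-background signal. With that quartile in place of the lower values, the rise was at least 3.21-fold, and WT 2 was the 1 JMJ24-bearing array above it. The measured difference was 1.74 (SE 0.13, limma adjusted p = 0.0433), and it was 1.69 (SE 0.19) for JMJ24 knockout minus WT and 1.80 (SE 0.19) for double knockout minus IBM1 knockout. Leaving out any 1 of the 8 arrays ended this call.

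The other 3 called probe sets name no single gene. Probe set 264649_at had the largest difference of the 6, with 2.25 and 2.28 on the JMJ24 knockout arrays, 2.48 and 2.44 on the double knockout arrays, 6.17 and 6.09 in WT, and 5.78 and 5.27 in the IBM1 knockout. All 4 JMJ24-lacking values were near background, so the transcript was at least 9.96-fold lower there (measured difference -3.47, SE 0.19, limma adjusted p = 0.0127). Of the 8 removals of 1 array, the call held only without IBM1 knockout 2. The annotation gives 264649_at no gene, and the probe set of JMJ24 is also unnamed. Whether 264649_at reads JMJ24 itself could therefore not be checked, and it is not read as a response to the loss. Probe set 257175_s_at, which is annotated with several genes, read 2.99 and 2.78 on the JMJ24 knockout arrays, 2.71 and 2.62 on the double knockout arrays, 3.85 and 4.13 in WT, and 4.02 and 4.11 in the IBM1 knockout. Its difference was -1.25 (SE 0.098, limma adjusted p = 0.0471). Probe set 258300_at was the other one that rose, with 5.15 and 5.17 on the JMJ24 knockout arrays and 5.06 and 5.15 on the double knockout arrays, against 4.55 and 4.61 in WT and 4.66 and 4.65 in the IBM1 knockout. Its difference of 0.52 (SE 0.039, limma adjusted p = 0.0455) was small but larger than the spread within any genotype. Both of these calls were lost on leaving out any 1 array, on added quantile normalization and under the replicate block. That of 258300_at was also lost under limma-trend (adjusted p = 0.536), without dim probe sets (0.175) and on median centring (0.054).

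**Figure D1:**
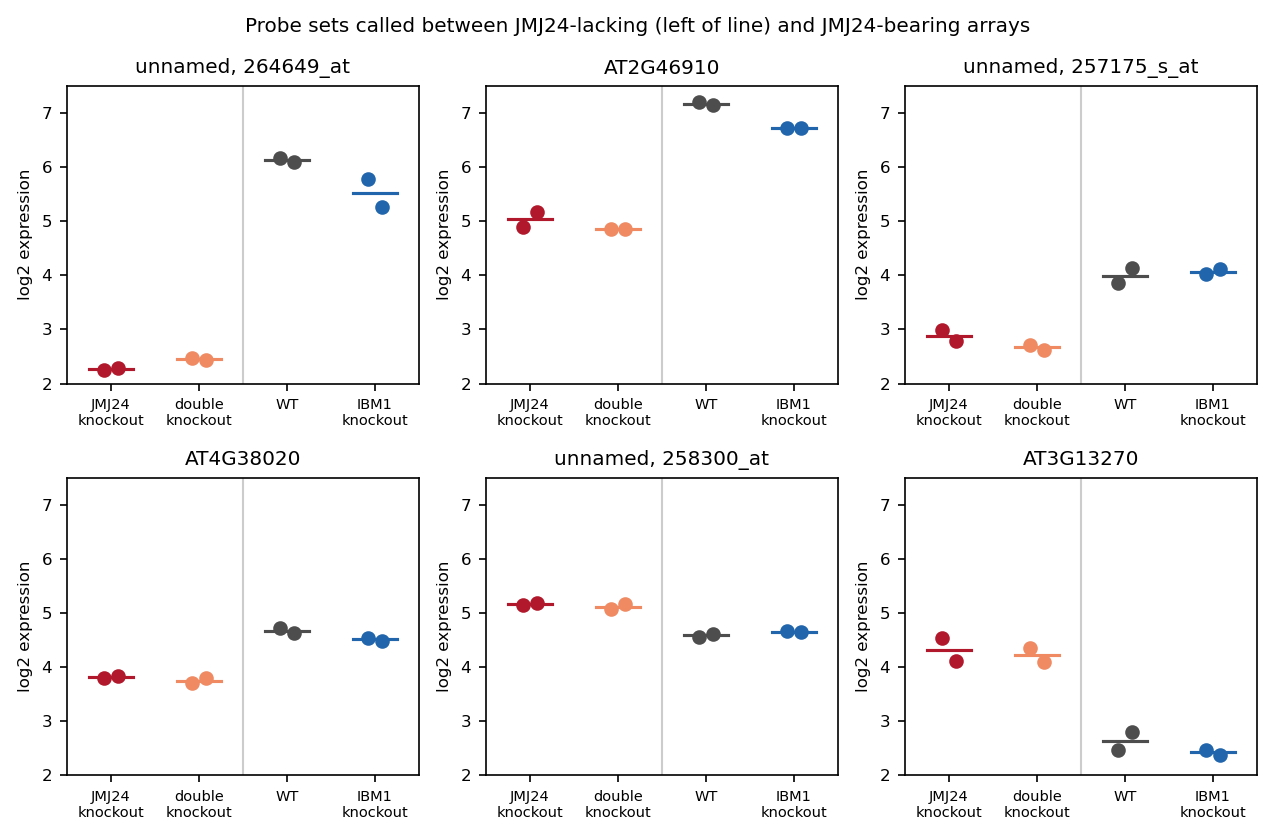
Log2 intensity of the 6 called probe sets on each of the 8 arrays, with JMJ24-lacking genotypes left of JMJ24-bearing ones. Points are arrays. In each panel the 4 JMJ24-lacking points do not overlap the 4 JMJ24-bearing points, and AT2G46910 reads 4.85 to 5.18 against 6.72 to 7.20.

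Most differences elsewhere were small. The median difference over all probe sets was 0.01, its middle 50% lay between -0.05 and 0.06, and 57.6% of probe sets were above 0. Groups that did not overlap, with every JMJ24-lacking array above or below every JMJ24-bearing array, were found at 523 probe sets (2.30%). Of these, 279 were higher (1.23%) and 244 lower (1.07%). Their median absolute difference was 0.30, and 184 differed by less than 0.25. Only 3 of them were higher and 10 lower by at least 1.

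Among named genes whose arrays did not overlap and whose highest genotype mean was at least 4, the uncalled genes of lowest p within each direction, 21 in all, are given as values. Their adjusted p ran between 0.117 and 0.402. The 11 above 0 had differences of 0.31 to 0.71 and the 10 below 0 had differences of -0.84 to -0.29.

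Of those above 0, AT1G22550, a member of the nitrate and peptide transporter family, had the lowest p. It read 4.06, 3.99, 3.84 and 3.88 on the JMJ24-lacking arrays and 3.22, 3.50, 3.07 and 3.16 on the JMJ24-bearing arrays, a difference of 0.71 (SE 0.067, limma adjusted p = 0.117). AT3G21650, a B′ regulatory subunit of protein phosphatase 2A, read 5.86, 6.08, 6.13 and 5.66 on JMJ24-lacking arrays and 5.28, 5.36, 5.28 and 5.01 on JMJ24-bearing arrays (difference 0.70, SE 0.12). The 2 genes had closely similar differences in both backgrounds, between 0.65 and 0.75. AT1G52100, a jacalin-like lectin, differed by 0.67 (SE 0.11). Its difference was 0.89 for JMJ24 knockout minus WT and 0.45 for double knockout minus IBM1 knockout, and the gap between the 2 had an unadjusted interaction p of 0.0151 and an adjusted p of 0.506. AT2G25250 differed by 0.53 (SE 0.065). AT1G18170, a prolyl isomerase of the FKBP type, AILP1, an aluminium-induced protein, and AT3G01340, a homologue of the coat protein SEC13 of secretory vesicles, differed by 0.35 (SE 0.055), 0.35 (SE 0.051) and 0.34 (SE 0.049). AT3G13062, AT3G48200 and AT1G33050 each differed by 0.33, and AT2G17033, a pentatricopeptide repeat protein, by 0.31. AILP1 was the most strongly expressed of them, with 10.51 ± 0.15 on JMJ24-lacking and 10.16 ± 0.18 on JMJ24-bearing arrays (SD, n = 4 each).

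Of those below 0, AT3G05730, which encodes a defensin-like peptide, had the lowest p. It read 8.85, 9.05, 9.22 and 9.16 on JMJ24-lacking arrays and 9.56, 9.85, 9.98 and 10.27 on JMJ24-bearing arrays, a difference of -0.84 (SE 0.10, limma adjusted p = 0.275). AT1G23410, a fusion of ubiquitin with a ribosomal protein, differed by -0.53 (SE 0.075), and bHLH115, a transcription factor of the iron-deficiency response, by -0.49 (SE 0.076). The values of bHLH115 were 6.44, 6.58, 6.46 and 6.52 on JMJ24-lacking arrays and 6.94, 6.80, 7.18 and 7.04 on JMJ24-bearing arrays. AOP1, an oxygenase of the family that shapes glucosinolate side chains, differed by -0.44 (SE 0.058). AT2G29995 and AT5G20740, an inhibitor of pectin methylesterase or invertase, each differed by -0.41, with SE of 0.060 and 0.064. AT5G66470, a GTPase of the Era type, differed by -0.35, AT4G00040, of the chalcone synthase family, by -0.33, AT2G04360 by -0.32 and AT5G35680, an initiation factor of the eIF1A type, by -0.29. None of these 10 passed the test, and all were chosen from probe sets whose groups of 4 arrays did not overlap.

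**Figure D2:**
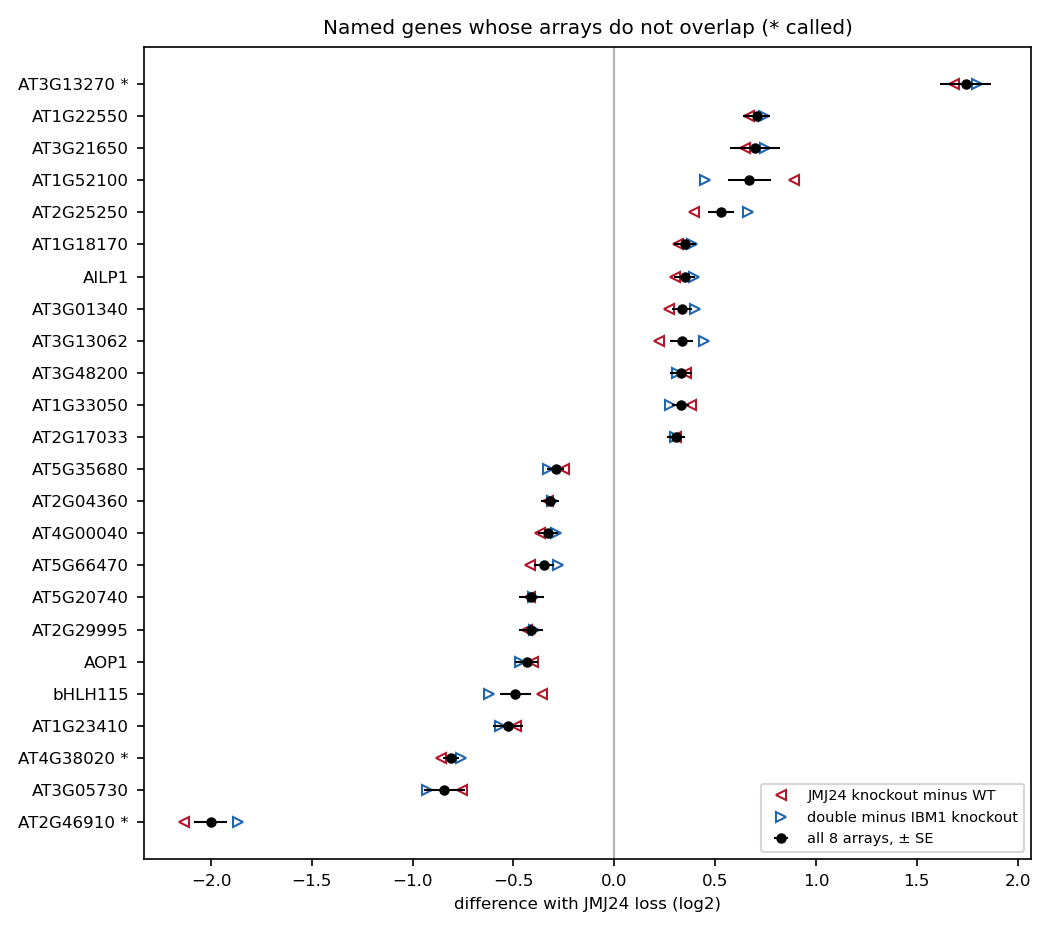
Differences in log2 intensity, JMJ24-lacking minus JMJ24-bearing, for the 24 named genes of the main comparison. Circles are the fit over all 8 arrays with its standard error as bars, and the other marks give JMJ24 knockout minus WT and double knockout minus IBM1 knockout. AT2G46910 lies at -2.00 and AT3G13270 at 1.74, and the 21 uncalled genes lie between -0.84 and 0.71.

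The 2 IBM1 backgrounds give JMJ24 differences that share no array, so each can be read against the other. JMJ24 knockout minus WT had 2 calls (0.00879%), and double knockout minus IBM1 knockout had 55 (0.242%), with 8 higher and 47 lower. Both calls of the first are among the 6 of the joint fit, and so are 4 of the 55. Whether calls are more numerous in 1 background than in the other was not tested as such. The interaction, which tests the difference at each probe set, was called at 3 probe sets (0.0132%). Across probe sets the sign was the same in both backgrounds for 51.8%, and Pearson's r was 0.01 over 22746 probe sets, which are not independent of each other.

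Most large differences of 1 background were small in the other. More of them passed 0.5 there in the same direction than among all probe sets. Passes in the opposite direction were not counted. The 100 probe sets furthest below 0 in double knockout minus IBM1 knockout had a median of -1.83 there and of 0.06 in JMJ24 knockout minus WT, where 25 of the 100 had the same sign and 3 lay at -0.5 or lower (1.09% of all probe sets). The 100 furthest above 0 had medians of 1.08 and -0.01, with 49 of the same sign and 19 at 0.5 or higher (1.05% of all probe sets). Chosen instead in JMJ24 knockout minus WT, the 100 lowest had a median of -0.77 there and of -0.14 in double knockout minus IBM1 knockout, with 63 of the same sign, 28 at -0.5 or lower (4.02% of all probe sets) and 13 at -1 or lower. The 100 highest had medians of 0.77 and 0.04, with 54 of the same sign and 24 at 0.5 or higher (2.95% of all probe sets).

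A difference of at least 1 with the same sign in both backgrounds was found at 11 probe sets (0.0484%), 4 higher and 7 lower. With opposite signs it was found at 6. At 0.5 or more, 54 were higher and 50 lower in both backgrounds, and 81 had opposite signs. Named among the 11 were AT2G46910 and AT3G13270, described above, and AT3G60180 and AT3G16670. AT3G60180, of a nucleotide kinase family, read 3.54, 2.67, 3.09 and 3.60 on JMJ24-lacking arrays and 4.04, 4.69, 5.07 and 5.10 on JMJ24-bearing arrays (difference -1.50, SE 0.26, limma adjusted p = 0.402). AT3G16670, a pollen Ole e 1 type protein, read 3.75, 4.18, 3.76 and 3.89 on JMJ24-lacking arrays and 4.77, 6.01, 5.20 and 5.08 on JMJ24-bearing arrays (difference -1.37, SE 0.27, limma adjusted p = 0.517). The arrays of the 2 groups did not overlap for either gene, and neither was called.

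**Figure D3:**
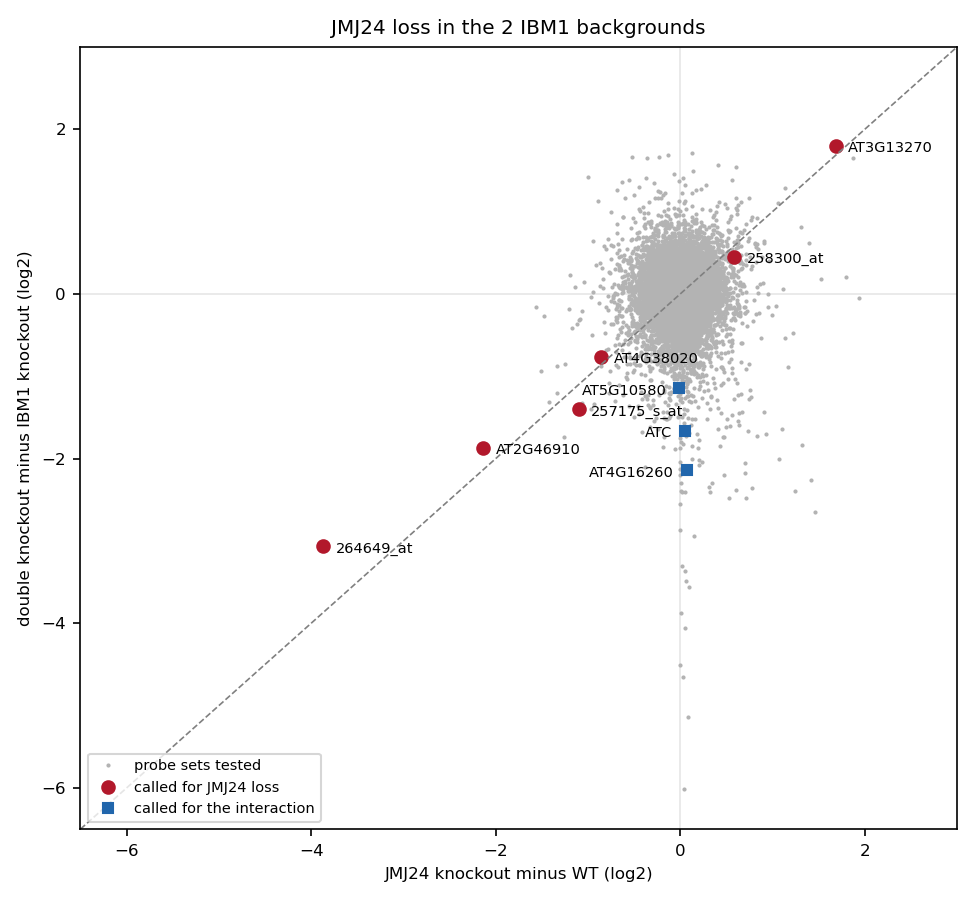
JMJ24 difference in log2 intensity with IBM1 present (JMJ24 knockout minus WT) against that with IBM1 lost (double knockout minus IBM1 knockout) for 22746 probe sets, with the 6 called for JMJ24 loss as circles and the 3 called for the interaction as squares. The 6 circles lie near the diagonal and the 3 squares on a tail down the vertical axis. Both positions follow from how they were called, since the joint fit favours equal differences and the interaction unequal ones. Most other points form a cloud around 0 (Pearson r = 0.01 over all).

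The largest differences were mostly not JMJ24 differences of both backgrounds. A difference of at least 1 was fitted at 48 probe sets, 8 higher and 40 lower on JMJ24-lacking arrays, and 4 of the 48 were called. At the other 44 the median SD was 0.29 on JMJ24-lacking and 1.46 on JMJ24-bearing arrays, against 0.10 and 0.12 over all probe sets. Their median absolute difference was 2.12 for double knockout minus IBM1 knockout and 0.16 for JMJ24 knockout minus WT. The difference was larger with IBM1 lost at 35 of the 44, and at 7 it was at least 1 with the same sign in both backgrounds. The wide spread and the unequal backgrounds of the 44 follow partly from how they were chosen. A large difference stays uncalled in the joint fit where the residual spread is large, and unequal backgrounds add to that spread. Of the 37 uncalled probe sets below 0, 29 had both IBM1 knockout arrays above all 6 other arrays, and 28 had their highest value on IBM1 knockout 2.

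Some of these are genes of seed storage and seed oil bodies. OLEO3, an oleosin of seed oil bodies, read 2.32, 2.37, 2.33 and 2.33 on JMJ24-lacking arrays, 2.35 and 2.33 in WT, and 3.43 and 5.82 in the IBM1 knockout (fitted difference -1.14, SE 0.67, limma adjusted p = 0.909). The cupin storage-type gene AT2G28490 read 2.36 to 2.40 on JMJ24-lacking arrays, 2.39 and 2.38 in WT, and 3.60 and 6.90 in the IBM1 knockout. M17, a late embryogenesis abundant gene, read 2.48 to 2.53 on JMJ24-lacking arrays, 2.51 and 2.49 in WT, and 3.83 and 5.43 in the IBM1 knockout. In these 3 genes the JMJ24-lacking arrays lay at the WT level, and the IBM1 knockout arrays stood above both. A list of 33 seed storage, oil body and seed late-embryogenesis genes was written after the values were seen, and 14 of them have a named probe set. None of the 14 was called, 10 lay below 0, and the median difference was -0.47, against 0.01 over all probe sets. Their mean level was 2.46 to 2.55 on the JMJ24-lacking arrays, 2.47 and 2.52 in WT, and 2.92 and 4.35 on IBM1 knockout 1 and 2. On each JMJ24-lacking and WT array 10 of the 14 were near background, against 3 and 2 on the IBM1 knockout arrays. The part of seed transcripts in the other differences was not tested. The mean of 4 nuclear photosynthesis genes was 11.3 to 11.5 on all 8 arrays.

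Other large differences were spread over both JMJ24-bearing genotypes. AT1G47400, which encodes a peptide of the iron-deficiency response, read 2.73, 3.49, 3.56 and 3.04 on JMJ24-lacking arrays and 4.67, 3.49, 4.37 and 5.02 on JMJ24-bearing arrays (difference -1.18, SE 0.34, limma adjusted p = 0.724). AT5G05250 had 2.67 to 3.34 on JMJ24-lacking arrays and 3.14 to 4.73 on JMJ24-bearing arrays (difference -1.13, SE 0.38). WT 2 was the JMJ24-bearing array that overlapped the JMJ24-lacking ones in both. AT4G01390 read 4.49, 4.1, 4.38 and 4.98 on JMJ24-lacking arrays and 5.74, 5.51, 5.42 and 5.70 on JMJ24-bearing arrays (difference -1.10, SE 0.19). AT4G04750, of a sugar transporter family, read 3.80, 3.31, 3.43 and 4.17 on JMJ24-lacking arrays and 4.91, 4.70, 4.79 and 4.51 on JMJ24-bearing arrays (difference -1.05, SE 0.21). In these last 2 the groups did not overlap, and neither was called, with limma adjusted p of 0.402 and 0.522.

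**Figure D4:**
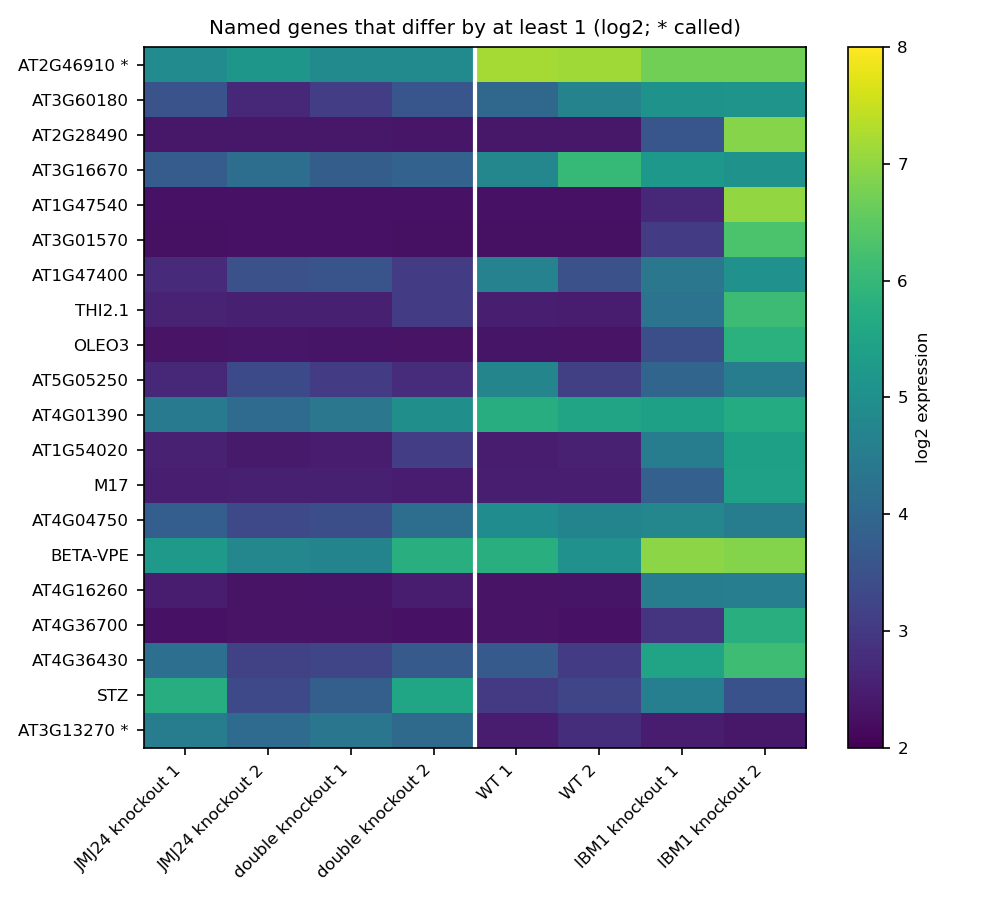
Log2 intensity on the 8 arrays for the 20 named probe sets with an absolute JMJ24 difference of at least 1, JMJ24-lacking arrays on the left. Several rows, such as OLEO3 and AT2G28490, are bright only on the IBM1 knockout arrays, while AT2G46910 is dim on all 4 JMJ24-lacking arrays.

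The gene lists were read by their counts, beside a median difference of 0.01 and 0.0264% called over all probe sets. Of 25 genes for jumonji and LSD1-type histone demethylases, 12 have a named probe set, none was called, and the median was -0.02. Their differences lay between -0.30 and 0.15. The lowest belonged to PKDM7D, also called JMJ16, a demethylase of histone H3 lysine 4. It read 4.38, 4.47, 4.34 and 4.31 on JMJ24-lacking arrays and 4.80, 4.67, 4.75 and 4.48 on JMJ24-bearing arrays (difference -0.30, SE 0.067, unadjusted p = 0.00396, limma adjusted p = 0.595). These groups did not overlap, and the gap between JMJ24 knockout 2 and IBM1 knockout 2 was the narrowest. AT1G11950, a relative of IBM1 and JMJ24, differed by -0.12 (SE 0.071).

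Silencing genes could be read only in small part. Of 30 genes for DNA methylation and silencing, 1 has a named probe set, DME, a glycosylase that removes methylated cytosine, and it differed by 0.05 (SE 0.038). Of 6 loci known to be under epigenetic silencing, 3 have one. QQS, an orphan gene with epigenetic variants that acts on starch content, read 4.78, 6.07, 5.70 and 4.99 on JMJ24-lacking arrays, 3.85 and 3.94 in WT, and 4.78 and 5.54 in the IBM1 knockout. All 4 JMJ24-lacking values exceeded WT, but they overlapped the IBM1 knockout (difference 0.86, SE 0.43, limma adjusted p = 0.882). The element AT2G04460 read 3.98, 2.84, 2.86 and 4.83 on JMJ24-lacking arrays, 2.89 and 2.87 in WT, and 6.73 and 5.93 in the IBM1 knockout (difference -0.98, SE 0.78, limma adjusted p = 0.981). Its higher JMJ24-lacking values were those of JMJ24 knockout 1 and double knockout 2, the arrays of different genotype that correlate most closely. AT4G08680 differed by 0.01.

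Other fibrillins did not share the fall of AT2G46910. Of 14 fibrillin genes, 8 have a named probe set and 1, AT2G46910, was called; the list was drawn up with that result known. The other 7 differed by -0.09 to 0.17, with 6 above 0, and their adjusted p was at least 0.946. PGL34, a plastoglobule fibrillin, read 5.63 to 5.84 on JMJ24-lacking arrays and 5.17 to 5.80 on JMJ24-bearing arrays. AT3G26070 differed by 0.14 (SE 0.090). Of 14 genes for plastoglobules and prenyl lipids 2 have a named probe set, and neither was called. NDC1, a quinone reductase of plastoglobules, differed by -0.09 and LYC, lycopene cyclase, by 0.15. The 4 of 23 nuclear photosynthesis genes that have a named probe set differed by -0.25 to 0.07, and none was called. The lowest was LHCB4.3 and the highest LHCB4.2, 2 forms of an antenna protein of photosystem II.

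In the stress and hormone lists no gene was called for JMJ24 status over both backgrounds. Of 19 salicylic acid genes 3 have a named probe set, and all 3 lay below 0 in the joint fit. For JMJ24 knockout minus WT, however, 2 of the 3 lay above 0, AT2G43620 at 1.46 and CHI at 0.43, against -2.65 and -1.85 for double knockout minus IBM1 knockout (limma adjusted p at least 0.321 in all 4 cases). CHI, an acidic chitinase, read 3.95, 2.61, 2.76 and 3.78 on JMJ24-lacking arrays, 2.86 and 2.84 in WT, and 5.43 and 4.82 in the IBM1 knockout (difference -0.71, SE 0.59), and the chitinase-type gene AT2G43590 differed by -0.24 (SE 0.17). Of 15 jasmonate genes 3 have one, with differences of -1.18 to -0.19. THI2.1, a thionin, read 2.57, 2.52, 2.52 and 3.06 on JMJ24-lacking arrays, 2.50 and 2.49 in WT, and 4.29 and 6.11 in the IBM1 knockout (difference -1.18, SE 0.63, limma adjusted p = 0.895). PDF1.2b, a defensin, read 3.05 to 3.13 on JMJ24-lacking arrays, 3.04 and 3.01 in WT, and 3.74 and 3.82 in the IBM1 knockout. It was called for double knockout minus IBM1 knockout (-0.67, limma adjusted p = 0.0266), while JMJ24 knockout minus WT was 0.04. In CHI, THI2.1 and PDF1.2b the IBM1 knockout arrays were the highest of the 8, and WT lay near the lower JMJ24-lacking arrays. Of 14 cold and abscisic acid genes 5 have a named probe set, with a median of -0.22. COR15A, a chloroplast cold-response protein, read 7.89, 7.71, 7.19 and 7.16 on JMJ24-lacking arrays and 8.20, 7.49, 8.35 and 7.97 on JMJ24-bearing arrays (difference -0.51, SE 0.25). AT3G02480, of the late embryogenesis abundant family, read 4.37 to 4.91 on JMJ24-lacking arrays, 4.41 and 4.29 in WT, and 5.99 and 6.11 in the IBM1 knockout. It too was called for double knockout minus IBM1 knockout (-1.64, limma adjusted p = 0.0277), with 0.41 for JMJ24 knockout minus WT.

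The anthocyanin genes with a named probe set, 2 of 12, were both below 0. DFR, a reductase of the pathway, read 6.18, 5.87, 5.52 and 7.28 on JMJ24-lacking arrays, 6.40 and 6.23 in WT, and 7.63 and 8.24 in the IBM1 knockout (difference -0.91, SE 0.46, limma adjusted p = 0.881). UF3GT, a glycosyltransferase of anthocyanins, differed by -0.68 (SE 0.26, limma adjusted p = 0.850). Of 15 flowering regulators 4 have a named probe set. ATC, a floral repressor of the TFL1 family, differed by -0.81 and SMZ, a repressor of the AP2 family, by -0.30. Neither was called (limma adjusted p = 0.857 and 0.850), and neither difference was alike in both backgrounds. For JMJ24 knockout minus WT, ATC was at 0.05 and SMZ at -0.53. For double knockout minus IBM1 knockout, ATC was at -1.67 and SMZ at -0.06. GI, a clock gene and the 1 of 11 clock genes with a named probe set, differed by 0.04.

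Among touch, heat and early stress genes 1 of 11 has a named probe set, and it was the highest of the named list members. STZ, a zinc finger repressor induced by many stresses, read 5.73 and 3.33 on the JMJ24 knockout arrays, 3.82 and 5.54 on the double knockout arrays, 3.01 and 3.25 in WT, and 4.60 and 3.52 in the IBM1 knockout (difference 1.01, SE 0.66, limma adjusted p = 0.943). Its high arrays were again JMJ24 knockout 1 and double knockout 2. EXPA7, a root hair expansin and the 1 of 5 root markers with a named probe set, was near background on all 8 arrays. None of the 5 flower and 4 seed markers has a named probe set.

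**Figure D5:**
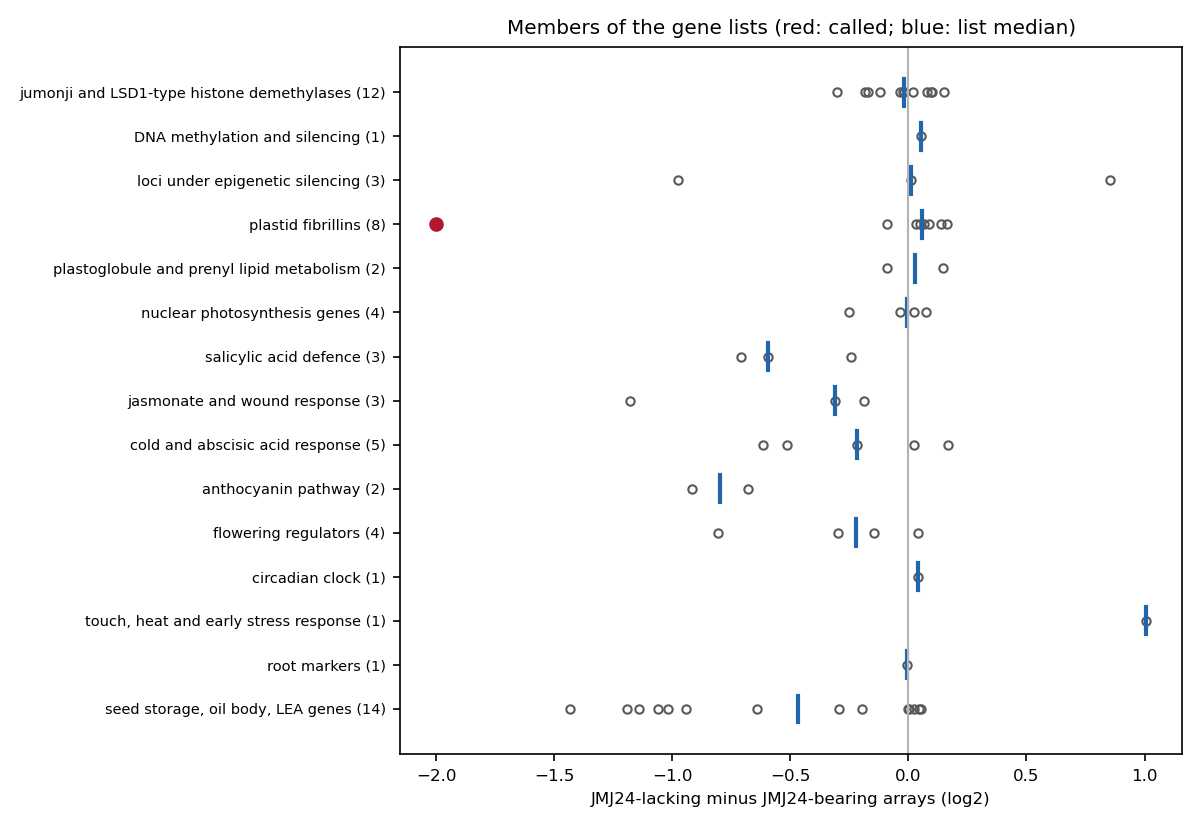
JMJ24-lacking minus JMJ24-bearing difference in log2 intensity for each named member of the gene lists, 1 line per list. The histone demethylases lie between -0.30 and 0.15, and in the fibrillin list AT2G46910 lies at -2.00 while the other 7 lie between -0.09 and 0.17.

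The neighbours of the called genes and of JMJ24 were read within 10 genes on each side, in the order of the TAIR10.1 gene table. Around JMJ24, 4 of 20 neighbours have a named probe set. AT1G09130, a subunit of the plastid Clp protease, differed by 0.19 (unadjusted p = 0.00655, limma adjusted p = 0.617), and AT1G09010 by 0.21. Around AT4G38020, 8 of 20 have one, and AT4G38050, of a nucleobase transporter family, differed by -0.26 (unadjusted p = 0.00215, limma adjusted p = 0.517). Around AT2G46910 and AT3G13270, 6 of 20 each have one, and none had an unadjusted p under 0.01. Over the 4 loci, 2 of 24 named neighbours had an unadjusted p under 0.01, against 1.36% of all probe sets, and none was called, against 0.0264%.

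Pseudogenes were set apart because AT3G13270 is one. Of 923 named pseudogene probe sets, AT3G13270 alone was called, and 5 (0.542%) did not overlap between the groups, all of them higher on JMJ24-lacking arrays. Over all probe sets 2.30% did not overlap and 0.0264% were called. Near-background signal on all 8 arrays was found at 44.0% of the pseudogenes and at 18.6% of all probe sets. Of 69 probe sets of the plastid genome none was called and none was without overlap. At an unadjusted p under 0.05 there were 2 of them (2.90%), against 5.81% of all probe sets.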

How the data were processed

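Total RNA of 8 samples was amplified, biotin-labelled and hybridised to ATH1 arrays, with 5.5 µg of ssDNA, per the labels' protocols. The authors deposited 1 table of log2 intensities. Per the submitters' processing notes they used GCRMA (background correction from probe sequence, then quantile normalization and a summary per probe set), in a version not stated in the notes given here. Groups came from the genotype labels.

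Of 22810 probe sets, 64 controls were left out. Names came from the platform annotation (13513 probe sets with 1 gene, 503 with several, 8730 with none), and 13436 matched a locus of the TAIR10.1 table. The model was fitted with limma 3.58.1 in R 4.3.3, with IBM1 and JMJ24 status as additive factors over all 8 arrays (5 residual degrees of freedom, prior 1.12), empirical Bayes moderation and Benjamini-Hochberg adjustment over 22746 probe sets. Within-background differences and the interaction came from 1 mean per genotype (4 residual, prior 1.20). The fit was tried on simulated data that held JMJ24 differences but no IBM1 effect and no interaction, so its handling of those was not tested. An array has no read depth. The small number of arrays sets the precision.

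The members and lists were chosen with earlier results of these data known. Named genes were called genes, filled to 12 per direction with uncalled genes without overlap, of 1 sign in both backgrounds and with a genotype mean of at least 4, by lowest p. To these were added from each list the 2 members of lowest p, 3 genes known from earlier results, called unnamed probe sets and neighbours with an unadjusted p under 0.01. Genes named for a difference of at least 1, beyond that rule, were chosen after their values were seen, as were the seed list with its members, PGL34, AT4G08680 and AT1G09010. Alternatives were the interaction in the model, a filter on dim probe sets (highest genotype mean under 5), an added quantile normalization, median centring, limma-trend, array weights, the replicate number as a block, a fold threshold, each background alone and leaving out each array. A crossed pairing and the removal of 2 arrays at once were chosen after seeing the data. No sequence is shown.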

Additional observations from a re-analysis of the deposited data

Results flagged for a closer look

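Single arrays stood apart in 6 of 150 groups of 4 arrays, those of 75 probe sets, by Dixon's ratio above its critical value. For values drawn alike, chance passes it in about 1 in 20 groups, or 7.5 of 150. Each group here pools different genotypes, and many of the probe sets were chosen by their values. Whether 6 is more or fewer than chance gives was therefore not tested. In AT2G46910, JMJ24 knockout 2 read 5.18, against 4.85 to 4.89 on the other 3 JMJ24-lacking arrays. In THI2.1 double knockout 2 read 3.06, and in the GDSL-type lipase gene AT1G54020 it read 3.10, each the highest JMJ24-lacking value. In LHCB4.3, an antenna protein of photosystem II, double knockout 1 read 6.97, the lowest JMJ24-lacking value. Among the JMJ24-bearing arrays, IBM1 knockout 2 read 7.02 in AT1G47540, a trypsin inhibitor family gene, and 4.91 in the cupin gene AT1G03890, where the other 3 read at most 2.68 and 2.32.

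The limma interaction test called 3 probe sets. In WT both arrays were near background for ATC and AT4G16260 and 1 of 2 for AT5G10580, so a fall on JMJ24 loss could hardly show in that background. In ATC the interaction was -1.71 (SE 0.071, adjusted p = 0.027). Its values were 2.55 and 2.49 on the JMJ24 knockout arrays, 2.60 and 2.54 on the double knockout arrays, 2.48 and 2.46 in WT, and 4.18 and 4.28 in the IBM1 knockout. In AT4G16260, a beta-1,3-glucanase, the interaction was -2.21 (SE 0.10, adjusted p = 0.027), with a measured difference of -2.14 for double knockout minus IBM1 knockout and of 0.07 for JMJ24 knockout minus WT. All its JMJ24-lacking values were near background too, and with the lower quartile in their place the first of these was -2.03, a bound. In AT5G10580 it was -1.14 (SE 0.061, adjusted p = 0.044), with -1.15 and -0.01. In each of the 3 the IBM1 knockout alone stood above the other genotypes. The 3 calls were all lost when any 1 of the 6 arrays outside the IBM1 knockout was left out.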

How the results depend on the processing

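The fitted JMJ24 difference of AT2G46910 kept its sign in every alternative run. The count of 6 called probe sets (2 higher, 4 lower) and of 3 interaction calls moved as follows. With the interaction in the model 14 were called, 12 of them lower, and 5 of the 6 were among them; the 9 others all had the larger change with IBM1 lost. With dim probe sets left out 3 were called (0 higher, 3 lower), 2 of them from the 6, and 0 interactions. That filter took out AT4G38020, AT3G13270, 257175_s_at and the 3 interaction probe sets before testing, so it did not retest those calls. With quantile normalization on top 3 were called (0 higher), and 0 interactions. Median centring left 1 higher, limma-trend 1 higher with 10 interactions, and the fold threshold 1 higher. JMJ24 knockout minus WT alone gave 2 (0 higher, 2 lower), and double knockout minus IBM1 knockout alone gave 55 (8 higher, 47 lower). Array weights changed no count.

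Leaving out 1 array gave 0 to 3 calls, 0 higher in each case and 0 to 3 lower, and 0 to 68 interactions. No probe set was called without JMJ24 knockout 2, double knockout 1, WT 2 or IBM1 knockout 1. Interactions numbered 68 without IBM1 knockout 1, 12 without IBM1 knockout 2 and 0 without any other array. With 1 IBM1 knockout array left, the spread comes from the other genotypes alone and the lone array is assumed to vary like them, so the 68 and 12 carry no spread of the IBM1 knockout. Each removal also leaves fewer degrees of freedom. Other causes of the lower and higher counts were not tested.

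Same-numbered arrays deviated together with correlations of -0.31 to 0.21, so the numbers were not taken as pairs. With the replicate block 5 were called, 0 higher and 5 lower, 3 of them from the 6, and 0 interactions. The crossed pairing of the double knockout arrays gave 2 (0 higher, 2 lower) and 0 interactions. Without JMJ24 knockout 1 and double knockout 2 together there was 1 call (0 higher, 1 lower) and 0 interactions. AT4G38020 was uncalled under limma-trend (adjusted p = 0.142), and AT3G13270 with the interaction in the model (0.0568), on quantile normalization (0.0707) and under the replicate block (0.102). 258300_at was uncalled under limma-trend (0.536), without dim probe sets (0.175), on quantile normalization (0.0707), on median centring (0.054) and under the block (0.102). 257175_s_at was uncalled on quantile normalization (0.0864) and under the block (0.144). For these calls the cause was not tested. With 4 arrays a group, signal near background limits what a low probe set can show.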
